A study of Mus musculus with 6 samples.

Results

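The immunoglobulin genes expressed in whole sciatic nerves of 12-month-old wild-type and Plekhg5-/- mice were examined nerve by nerve. RNA had been sequenced from 3 nerves per genotype, numbered 2, 4 and 5 in wild-type and 2, 3 and 5 in Plekhg5-deficient animals, and each library is taken here as 1 animal, although the labels do not say whether nerves were pooled. The nerves are written WT 2, WT 4 and WT 5 and KO 2, KO 3 and KO 5 from here on. The members were all genes whose symbol begins with Ighv, Igkv or Iglv, and the constant genes Igha, Ighd, Ighe, Ighg1, Ighg2b, Ighg2c, Ighg3, Ighm, Igkc, Iglc1, Iglc2 and Iglc3, if they reached 1 FPKM (fragments per kilobase of transcript, adjusted for the mapped fragments of the library) in at least 1 of the 6 libraries. This rule gave 123 of 39174 genes, comprising 36 of 114 heavy chain variable genes, 75 of 104 kappa variable genes, all 3 lambda variable genes and 9 constant genes. Ighd, Iglc1 and Iglc3 were not analysed here. The level that chose the members is a measured value, so their presence in at least 1 nerve is a description and not a finding. The members just inside the limit were Ighv1-85 at 1.002 FPKM and Ighv1-64 and Ighv1-72 at 1.03 FPKM. Igkv1-88 at 0.998 and Ighv1-22 at 0.925 FPKM fell just outside. Of the 107 immunoglobulin genes that were left out, 34 were listed at 0 in all libraries.

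An antibody is built from heavy chains and from light chains of the kappa or the lambda type. Each developing B-cell joins one of many variable gene segments to short joining segments, and the descendants of that cell carry the same choice, so a large clone puts its own variable gene forward. Heavy chains start out with the mu constant region, encoded by Ighm, and B-cells can later switch to a gamma, epsilon or alpha region, encoded by the Ighg genes, Ighe and Igha. B-cells carry the product on their membrane, and plasma cells secrete it in large amounts and hold very high levels of its mRNA. A healthy peripheral nerve contains few cells of this lineage.

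In the coordinates of the deposited tables (GRCm38), the heavy chain genes of the rule lay on chromosome 12 between 113258768 and 116000461, the kappa genes on chromosome 6 between 67555636 and 70726757, and the lambda genes on chromosome 16 between 19085017 and 19260844. The variable genes that led the mix of a nerve are given here by the last 66 bases of their germline coding sequence, read from the GENCODE M21 transcripts (GRCm38), since 66 bases are the length of a trimmed read, from which the gene has to be told. The capitals begin at the codon of the last in-frame cysteine, which precedes the third hypervariable loop, the part where antibodies differ most. The kappa genes Igkv14-126, Igkv5-39, Igkv2-137, Igkv8-24 and Igkv3-2 led the kappa chains of the different nerves. Their stretches lie at chr6:67896577-67896642 (plus strand), chr6:69900424-69900489 (minus strand), chr6:67556151-67556216 (plus strand), chr6:70216858-70216923 (minus strand) and chr6:70699002-70699067 (plus strand).
Igkv14-126: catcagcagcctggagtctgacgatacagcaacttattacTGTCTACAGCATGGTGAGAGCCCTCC
Igkv5-39: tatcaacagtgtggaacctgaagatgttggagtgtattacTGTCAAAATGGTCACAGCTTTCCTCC
Igkv2-137: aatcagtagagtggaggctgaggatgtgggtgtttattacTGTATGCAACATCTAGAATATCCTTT
Igkv8-24: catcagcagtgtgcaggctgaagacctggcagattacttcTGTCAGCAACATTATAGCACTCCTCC
Igkv3-2: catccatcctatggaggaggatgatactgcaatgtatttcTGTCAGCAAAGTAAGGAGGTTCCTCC

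Between any pair of these kappa genes, 36 to 44 of the 66 bases were identical. Other leading genes resembled each other more. Ighv1-82 (chr12:115952538-115952603, minus strand) had the highest heavy chain variable FPKM in WT 5 and Ighv1-78 (chr12:115868773-115868838, minus strand) in KO 3, and 62 of 66 bases were identical between them. Iglv1 (chr16:19085017-19085082, minus strand) and Iglv2 (chr16:19260401-19260466, minus strand) shared 63 of 66 bases.
Ighv1-82: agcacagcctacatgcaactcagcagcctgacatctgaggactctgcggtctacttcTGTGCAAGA
Ighv1-78: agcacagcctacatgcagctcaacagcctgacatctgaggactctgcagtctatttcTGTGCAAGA
Iglv1: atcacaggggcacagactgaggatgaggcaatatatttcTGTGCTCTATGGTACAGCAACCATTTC
Iglv2: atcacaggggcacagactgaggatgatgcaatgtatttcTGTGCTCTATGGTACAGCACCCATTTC

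Over whole transcripts, all windows of 66 bases were compared for exact matches among the immunoglobulin transcripts of GENCODE M21. Other transcripts and near matches were not searched. Of the 119 members found there, 30 shared no window with another gene and 5 shared at least 50% of theirs. Igkv14-126, Igkv5-39, Igkv2-137, Igkv8-24 and Ighv1-78 shared none. Igkv6-20 shared 60.6% of its windows, most of them with Igkv6-29, Ighv1-72 shared 83.4%, and levels of such genes are uncertain. Igkv19-93 and Igkv4-55 each overlap another annotated gene on the opposite strand, and whether strand was used in the counting was not stated.

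The libraries differed in ways that bear on the members. Plekhg5 itself, a guanine nucleotide exchange factor, was at 3.65, 4.13 and 5.26 FPKM in WT 2, WT 4 and WT 5 and between 0.0521 and 0.141 in Plekhg5-deficient nerves, as the labels say. These FPKM and all that follow were divided by scaling factors of 0.745 (KO 5) to 1.12 (WT 4). The tables hold no counts, and the widths of their 95% intervals put the sum of fragments lowest in WT 5 and highest in WT 2. The myelin genes Mbp and Pmp22 were at 2346 FPKM or more in every nerve. Haemoglobin transcripts took 15.98% of summed FPKM in KO 5 and at most 2.56% elsewhere, and all 5 skeletal muscle markers were at least 2-fold higher in that nerve than in any other. In whole tissue, more cells of a type and more RNA per cell cannot be told apart.

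The summed FPKM of all immunoglobulin genes was 138, 274 and 1680 in WT 2, WT 4 and WT 5 and 122, 2366 and 2336 in KO 2, KO 3 and KO 5. WT 5, KO 3 and KO 5 were thus high and the other three low, and each genotype held nerves of both kinds. In the 3 high nerves these genes made up 0.178%, 0.303% and 0.163% of summed FPKM, against 0.0166% to 0.0403% in the low nerves. Of the 123 members, 118 had their highest level in one of the 3 high nerves (37 in WT 5, 40 in KO 3 and 41 in KO 5). For 69 members all 3 high nerves were above all 3 low ones. Igha, Ighg2c, Ighm and Igkc were the members that reached 1 FPKM in all 6 nerves, whereas 51 members reached it in a single nerve. As nerves were called high or low from these same values, no test was made between them. Members also had to reach 1 FPKM in some nerve. The counts of 118 and 69 thus follow in part from these choices, and they were not set beside counts over all genes.

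No member passed the test between genotypes. Over 21285 genes, limma on log2(FPKM + 1) called 2 lower (0.0094%) and 6 higher (0.0282%) in Plekhg5-deficient nerves at an adjusted p under 0.05, and 0 of the 123 members. At an unadjusted p under 0.05, 2.69% of all genes were lower and 2.41% higher, and among the members 0 were lower and 3 (2.44%) higher, namely Ighv1-31, Ighv6-6 and Igkv8-28. The genotypes did not overlap for 5.88% of all genes in the lower and 5.69% in the higher direction, and for 0 and 3 of the 123 members (Ighv6-6, Igkv1-122 and Igkv8-28). With all 6 nerves, the share of members was thus near or below that of all genes. This did not hold in every fit. Without KO 2, the Plekhg5-deficient nerve of lowest immunoglobulin level, 29 of 122 members (23.8%) were higher at an unadjusted p under 0.05, against 2.06% of all genes, and without WT 5 it was 9 of 120 (7.50%) against 2.16%. Leaving out one of the other nerves gave 1 to 4 members. No member passed at an adjusted p under 0.05 in any of these fits. Plekhg5 passed with all 6 nerves (log2 fold change -2.26, limma adjusted p = 0.038) but in no fit that left out a nerve. The absence of calls in those fits therefore does not show that the members were unchanged. The median log2 fold change of the members was 0.61, against 0.0065 over all genes, with 94 of 123 above 0. Their median standard error was 0.68, against 0.22 over all genes. Leaving out single nerves gave medians from 0.16, with 66 of 118 above 0, without KO 5 to 1.13 without KO 2.

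Among the constant genes, Ighm had the highest value of the heavy chain genes in every nerve, although in KO 3 its interval (236 to 259 FPKM) overlapped that of Igha. It encodes the mu chain of IgM and lies on chromosome 12 from 113418950 to 113422730. Ighm had 67.7, 166 and 363 FPKM in WT 2, WT 4 and WT 5 and 29.1, 247 and 567 in KO 2, KO 3 and KO 5. The genotypes overlapped widely, with the lowest and the highest value both in Plekhg5-deficient nerves, and the log2 fold change was 0.01 (standard error 1.13, limma adjusted p = 0.9999), with a sign that changed with the scaling. The interval of Ighm was wide for its level, with 4.58 to 19.6 fragments per FPKM, against 11.1 to 24.2 for Igha.

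Igha, which encodes the alpha chain of IgA, stood out in KO 3. It lies on chromosome 12 from 113258768 to 113260236. Igha had 4.16, 1.97 and 16.6 FPKM in WT 2, WT 4 and WT 5. In KO 2, KO 3 and KO 5 it had 1.36, 237 and 59.5 FPKM. KO 3 was the highest by far, with an interval of 231 to 244 FPKM, and KO 2 was the lowest of all. Means ± SD over 3 nerves were 7.56 ± 7.87 in wild-type and 99.4 ± 123 in Plekhg5-deficient mice, for a log2 fold change of 2.33 ± 1.65 SE (limma, adjusted p = 0.974). It came to 0.89 without KO 3 and to 4.22 without KO 2.

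The gamma chain genes encode the IgG subclasses. Ighg3 was listed at 0 and at 0.234 and 59.6 FPKM in WT 2, WT 4 and WT 5 and was at 1.42, 13.4 and 26.4 FPKM in KO 2, KO 3 and KO 5. Ighg2b had 0.213, 0.604 and 44.1 against 0.419, 38.8 and 28.5 FPKM in the same order. For both genes the 3 high nerves stood above the 3 low ones irrespective of genotype. Ighg1 did not follow this order. It was listed at 0 and at 0.179 and 13.3 FPKM in WT 2, WT 4 and WT 5 and was at 1.16, 0.0444 and 35.0 FPKM in KO 2, KO 3 and KO 5. In KO 3 the Ighg1 level rested on about 1 fragment, whereas Ighg3 and Ighg2b rested on 303 and 886 there. Without KO 5 the log2 fold change of Ighg1 went from 0.76 to -0.77.

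Ighg2c, the gamma gene with the smallest relative spread between nerves, was detected in all of them. It had 3.85, 2.23 and 9.28 FPKM in WT 2, WT 4 and WT 5 and 8.59, 7.22 and 30.0 FPKM in KO 2, KO 3 and KO 5. WT 5 lay above 2 of the 3 Plekhg5-deficient nerves, so the genotypes overlapped (log2 fold change 1.31 ± 0.62 SE, limma adjusted p = 0.974). Ighe, which encodes the chain of IgE, reached 1.25 FPKM (about 30 fragments) in KO 2 and was at 0.107 FPKM or less in the other nerves. KO 2 had the lowest Ighm and Igha levels of all 6 nerves.

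The kappa constant gene Igkc lies on chromosome 6 from 70726435 to 70726757. It had 26.1, 53.4 and 469 FPKM in WT 2, WT 4 and WT 5 and 40.5, 889 and 724 in KO 2, KO 3 and KO 5. The lambda constant gene Iglc2, on chromosome 16 from 19198401 to 19200351, had 1.03, 1.15 and 127 against 0.652, 19.9 and 142 FPKM in the same order. The 3 high nerves were above the 3 low ones for both genes, and the genotypes overlapped for both. The log2 fold changes were 1.76 (standard error 1.48) for Igkc and 1.05 (standard error 2.12) for Iglc2, with adjusted p = 0.974 and 0.984 from limma. That of Igkc came to 0.90 without WT 2, 0.97 without KO 3, 2.96 without WT 5 and 3.18 without KO 2, and that of Iglc2 lay between -0.49 (without KO 5) and 3.03 (without WT 5) when each nerve was left out. All 9 constant genes had a log2 fold change above 0, with a median of 1.22, and none passed the test or was free of overlap between genotypes.

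**Figure D1:**
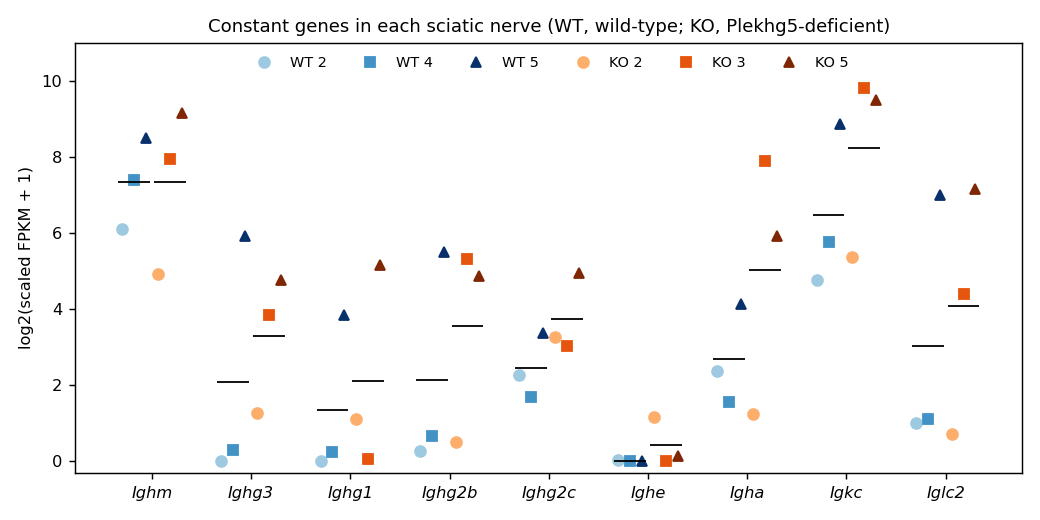
Levels of the 9 constant genes as log2(scaled FPKM + 1) on the vertical axis. Each symbol is 1 sciatic nerve (WT, wild-type; KO, Plekhg5-deficient), and each short line is the mean of the 3 log2 values of a genotype. WT 5, KO 3 and KO 5 stand above the other nerves for Igkc and Ighm, while KO 3 leads for Igha at 237 FPKM and is near 0 for Ighg1.

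The isotype mix, given as percent of the summed FPKM of the heavy chain constant genes, differed from nerve to nerve within each genotype. Ighm made up 89.1%, 97.0% and 71.8% in WT 2, WT 4 and WT 5 and 67.2%, 45.4% and 75.9% in KO 2, KO 3 and KO 5. The mu share was thus highest in the low wild-type nerves and lowest in KO 3. Igha made up 5.47%, 1.15% and 3.27% in wild-type and 3.15%, 43.6% and 7.98% in Plekhg5-deficient nerves in the same order. Apart from KO 3, no nerve was above 8%. The Igha share averaged 3.30% ± 2.16 (SD) over the 3 wild-type and 18.3% ± 22.1 over the 3 Plekhg5-deficient nerves, a difference of 15.0 percentage points that came to 2.27 without KO 3.

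The 4 IgG genes together made up 5.35%, 1.90% and 24.9% in WT 2, WT 4 and WT 5 and 26.8%, 10.9% and 16.1% in KO 2, KO 3 and KO 5. The highest shares were in KO 2 and WT 5, a low and a high nerve. Within IgG, Ighg2c took 94.8%, 68.7% and 74.1% in the low nerves (WT 2, WT 4 and KO 2). It took 7.35%, 12.1% and 25.0% in the high nerves (WT 5, KO 3 and KO 5). Ighg3 led in WT 5 at 47.2% of IgG and Ighg2b in KO 3 at 65.3%. In KO 5 no subclass stood out, with Ighg1 at 29.2% and Ighg2c at 25.0%, whose intervals overlapped (31.7 to 38.3 and 27.3 to 32.7 FPKM). By fragments, Ighg2c was ahead there at 28.9% against 27.2% for Ighg1. With Ighm set aside, Igha took 80.0% of the switched heavy chain FPKM in KO 3 and 9.61% to 50.4% in the other nerves.

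**Figure D2:**
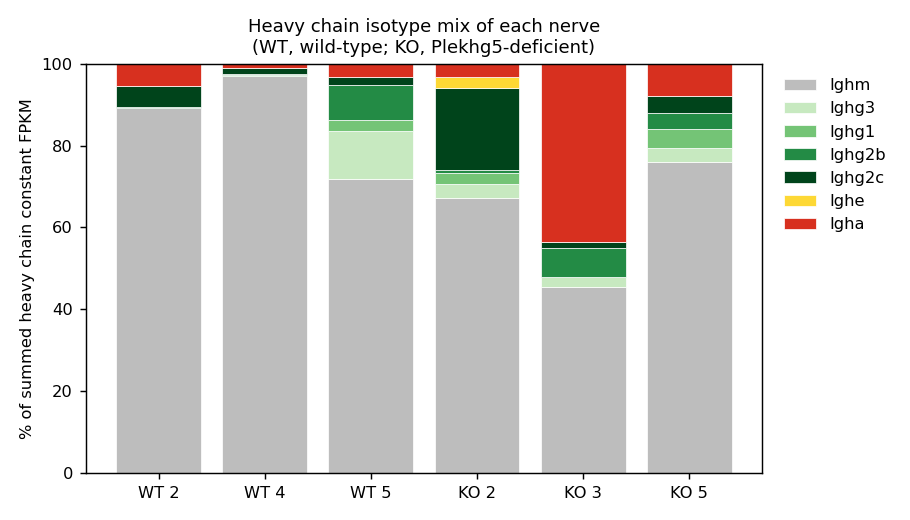
Stacked bars of the heavy chain constant genes as percent of their summed FPKM in each sciatic nerve (WT, wild-type; KO, Plekhg5-deficient), 1 bar per nerve. Ighm fills 45.4% of KO 3, where Igha takes 43.6%, and 67.2% to 97.0% of the other bars, and the IgG genes take their largest share, 26.8%, in KO 2.

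The shares depended on how the gene level was expressed. When the fragments that the intervals imply were used in place of FPKM, Ighm made up 20.8% and Igha 63.4% in KO 3, and Igha 1.94% to 18.6% in the others. The implied fragments of Ighm did not follow its level, at 1855, 1840 and 1933 for 363, 247 and 567 FPKM in WT 5, KO 3 and KO 5. Heavy chain shares by fragments are therefore uncertain in these nerves and may set Ighm too low. KO 3 had the highest Igha share on both scales. The share of Iglc2 among light chain constant genes, described next, was 3.02% to 33.5% by fragments, higher in every nerve than by FPKM, and WT 5 and KO 5 were the highest nerves on both scales.

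Light chains were mainly kappa. Iglc2 made up 3.80%, 2.11% and 21.3% of the light chain constant FPKM in WT 2, WT 4 and WT 5 and 1.58%, 2.19% and 16.4% in KO 2, KO 3 and KO 5. The nerves numbered 5 were the highest in either genotype, and KO 3, although high in summed immunoglobulin level, was as low as the low nerves. This share averaged 9.07% ± 10.6 (SD) over the 3 wild-type and 6.73% ± 8.38 over the 3 Plekhg5-deficient nerves, a difference of -2.34 percentage points that turned to 3.77 without WT 5 and to -7.18 without KO 5. Since Iglc2 alone stands for the lambda constant genes here, the share is that of this gene, and the lambda variable genes placed KO 3 otherwise.

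The lambda variable genes gave another order. Iglv1 had 0.111, 1.08 and 10.5 FPKM in WT 2, WT 4 and WT 5 and 0.482, 44.9 and 20.7 in KO 2, KO 3 and KO 5. Iglv2 was at 0, 0.250 and 17.7 against 0, 5.23 and 21.1 FPKM, and Iglv3 at 0.213, 0.317 and 32.4 against 0, 9.82 and 16.9 FPKM. The 3 high nerves stood above the others for all 3 genes, but with different leaders. Iglv1 made up 74.9% of lambda variable FPKM in KO 3, Iglv3 made up 53.4% in WT 5, and KO 5 was divided into 35.3% Iglv1, 35.9% Iglv2 and 28.8% Iglv3. The summed lambda variable level was 3.01 times that of Iglc2 in KO 3, against 0.477 and 0.413 times in the nerves numbered 5. Of the light chain variable FPKM, lambda genes made up 1.03%, 3.70% and 11.9% in WT 2, WT 4 and WT 5. In KO 2, KO 3 and KO 5 they made up 1.35%, 7.26% and 8.91%. By this share KO 3 stood with the high nerves.

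Kappa variable genes summed to nearly the level of their constant gene. The summed Igkv level was 1.19, 0.801 and 0.953 times that of Igkc in WT 2, WT 4 and WT 5 and 0.867, 0.861 and 0.829 times in KO 2, KO 3 and KO 5. The summed Ighv level was much lower against its constant genes, at 0.0229 to 0.138 times in wild-type and 0.0513 to 0.160 times in Plekhg5-deficient nerves. Against the switched heavy chain genes alone it came to 0.371, 0.753 and 0.489 times in wild-type and 0.156, 0.293 and 0.364 times in Plekhg5-deficient nerves. This last ratio was the single one of 40 quantities of the mix without overlap between genotypes. Over all genes, 5.88% had lower values in Plekhg5-deficient nerves without overlap. The nearest nerves were close, at 0.371 in WT 2, where all Ighv genes rested on 26 fragments, and 0.364 in KO 5. The smallest p that an exact permutation test (two-sided) of 3 nerves per genotype can give is 0.1. The heavy chain constant sum was 2.80 and 3.14 times the light chain constant sum in WT 2 and WT 4 and between 0.598 and 1.05 times in the other nerves.

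The spread of kappa variable genes differed widely between nerves. At 1 FPKM or more after scaling, 4, 8 and 57 Igkv genes were present in WT 2, WT 4 and WT 5 and 9, 39 and 54 in KO 2, KO 3 and KO 5. The effective number of genes, the inverse Simpson index, which counts equally abundant genes that would give the same concentration, was 1.65, 2.67 and 15.5 in wild-type and 5.91, 9.88 and 21.4 in Plekhg5-deficient nerves in the same order. The nerves numbered 5 had the widest spread in both genotypes, and WT 2 and WT 4 the narrowest. The genotypes overlapped, and the difference of the mean effective numbers was 5.77, with a range of 1.28 to 10.2 when each nerve was left out.

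The nerves also differed in fragments, from 206 over all Igkv genes in KO 2 to 6153 in KO 3, so the number of genes was also computed for 206 fragments from each nerve. This gave 23.7, 20.9 and 46.3 genes with at least 1 fragment in WT 2, WT 4 and WT 5 and 25.0, 31.5 and 45.5 in KO 2, KO 3 and KO 5. At equal fragments the nerves numbered 5 were still the widest, and KO 3, with the most Igkv fragments, was closer to the low nerves than to them. The number of Igkv genes needed to reach 50% of the summed level was 1, 2 and 7 in wild-type and 4, 4 and 8 in Plekhg5-deficient nerves.

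**Figure D3:**
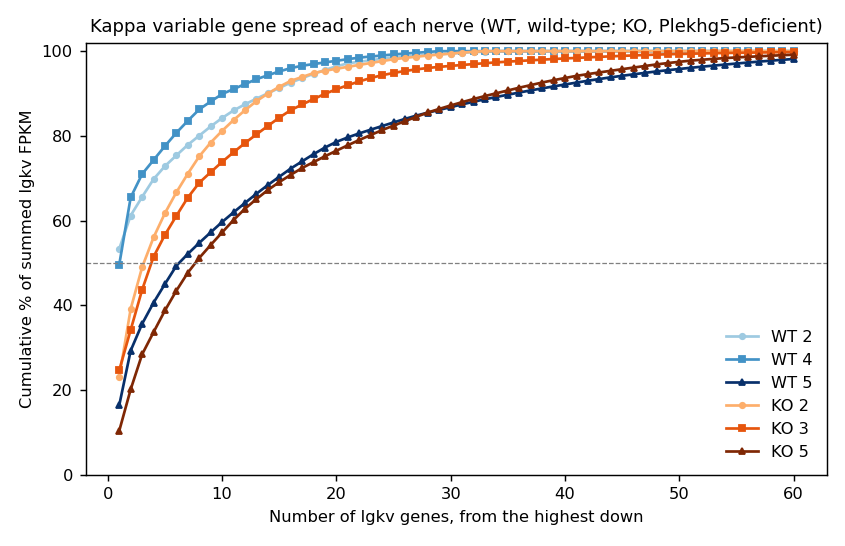
Cumulative percent of summed Igkv FPKM (vertical axis) against the number of Igkv genes taken from the highest down (horizontal axis), 1 curve per sciatic nerve (WT, wild-type; KO, Plekhg5-deficient). WT 2 and WT 4 start at 53.3% and 49.6% with a single gene, and WT 5 and KO 5 start at 16.4% and 10.4%.

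A different kappa gene led in most nerves. In WT 2 and WT 4 Igkv14-126 made up 53.3% and 49.6% of the summed Igkv level. By fragments, it held 150 of 267 (56.2%, 95% Wilson interval 50.2% to 62.0%) and 128 of 247 (51.8%, 45.6% to 58.0%), intervals that cover counting error alone. Igkv14-126 shares no exact 66-base window with another immunoglobulin gene. It had 16.6, 21.2 and 3.10 FPKM in WT 2, WT 4 and WT 5, was listed at 0 in KO 2, and had 34.3 and 58.7 FPKM in KO 3 and KO 5. It was the one leading kappa gene whose level in both low wild-type nerves was above that in WT 5.

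Igkv8-24 led in KO 3 at 189 FPKM, which was 24.7% of the Igkv level there and rested on 1589 fragments. Its other levels were 0.963, 0.796 and 28.2 FPKM in WT 2, WT 4 and WT 5 and 2.47 and 49.6 FPKM in KO 2 and KO 5. It was therefore found in every nerve and was among the first 3 kappa genes in all 3 high nerves. Igkv2-137, at the end of the locus far from Igkc, had 8.10 and 72.9 FPKM in KO 2 and KO 3, where it ranked first and second. It was at 0.803 FPKM in KO 5 and at 0, 0 and 1.51 FPKM in WT 2, WT 4 and WT 5, so the genotypes overlapped (log2 fold change 2.97 ± 1.26 SE, limma adjusted p = 0.972). Igkv4-57 came next in KO 3 at 72.5 FPKM and was at 5.99 FPKM or less elsewhere.

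Igkv5-39 led in WT 5 at 73.3 FPKM (16.4% of Igkv) and had 1.42 FPKM in WT 4, 15.1 and 31.4 FPKM in KO 3 and KO 5, and 0 in the other two. Igkv6-20, which cannot be separated well from Igkv6-29, followed with 57.6 FPKM there and had 28.1 FPKM in KO 5 and 0.250 or less elsewhere. Igkv3-2 led in KO 5 at 62.2 FPKM (10.4% of Igkv) and was at 6.80 FPKM or less elsewhere, although it ranked second in WT 4 at 15.9%. Igkv14-126, the leader of WT 2 and WT 4, was close behind it in KO 5, with 281 against 302 fragments. In WT 5, Igkv5-39 rested on 225 and Igkv6-20 on 212 fragments. In WT 5 and KO 5 the leader was thus not ahead beyond counting error. By FPKM each of the 3 high nerves had its own leader, and none led by as large a share as Igkv14-126 in the low wild-type nerves.

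Of the 3 members without overlap between genotypes, Igkv8-28 was listed at 0, 0 and 0.149 FPKM in WT 2, WT 4 and WT 5 and was at 5.64, 0.987 and 4.65 FPKM in KO 2, KO 3 and KO 5 (log2 fold change 2.01 ± 0.45 SE, limma adjusted p = 0.573). Ighv6-6 was at 0, 0 and 0.255 against 0.474, 9.56 and 3.46 FPKM (log2 fold change 1.93 ± 0.66 SE, limma adjusted p = 0.923). Igkv1-122 was listed at 0 in all wild-type nerves and reached 3.46, 0.342 and 0.202 FPKM in KO 2, KO 3 and KO 5, the last resting on 1 fragment. Ighv1-31 was listed at 0 in all wild-type nerves and in KO 2, and was at 1.90 and 3.46 FPKM in KO 3 and KO 5 (limma adjusted p = 0.972). None of the 4 passed the test over all genes.

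Heavy chain variable genes were low, and in the low nerves they were close to the limit of detection. No Ighv gene reached 1 FPKM in WT 2 and WT 4 or in KO 2, where all Ighv genes together rested on 26, 18 and 9 fragments, so the spread was not resolved there. In WT 5, KO 3 and KO 5, 18, 15 and 20 Ighv genes reached it, with effective numbers of 11.3, 7.57 and 15.9. KO 3 had the narrowest spread of the high nerves for heavy as for kappa chains, with 647 Ighv fragments against 240 and 274.

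Ighv1-78 had the highest FPKM in KO 3, at 17.2, and was at 0.930 FPKM or less in the other nerves. It was followed there by Ighv6-3 at 15.7 and Ighv6-6 at 9.56 FPKM. By fragments the order of the first pair was the other way round, with 129 for Ighv6-3 and 117 for Ighv1-78. Ighv6-3 was listed at 0 in the other nerves except KO 5, at 0.306 FPKM. In WT 5, Ighv1-82 at 8.06, Ighv14-4 at 7.75 and Ighv14-1 at 6.32 FPKM led, and each was at 1.20 FPKM or less elsewhere. Ighv14-4 rested on 28 and Ighv1-82 on 26 fragments, so neither was ahead beyond counting error. Ighv9-3 led in KO 5 at 5.94 FPKM, 9.09% of the Ighv level. By family, Ighv14 made up 26.1% of Ighv FPKM in WT 5 and 0.409% and 4.49% in KO 3 and KO 5, whereas Ighv6 made up 29.3% in KO 3 and 0.365% and 5.95% in WT 5 and KO 5. The large Ighv1 family took 40.5%, 41.3% and 49.4% in WT 5, KO 3 and KO 5. In WT 2, WT 4 and KO 2 it took 37.3%, 44.6% and 55.7%, where all Ighv genes rested on 26, 18 and 9 fragments.

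**Figure D4:**
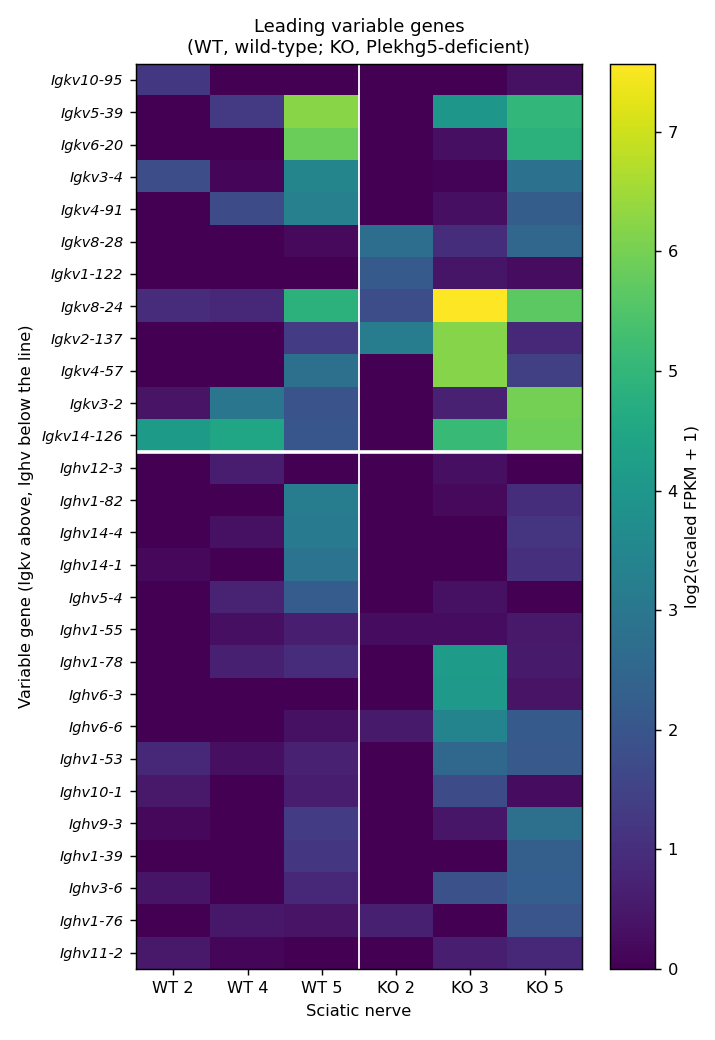
Heat map of the 12 kappa and 16 heavy chain variable genes that ranked among the first 3 of their chain in any sciatic nerve (columns; WT, wild-type; KO, Plekhg5-deficient), colored by log2(scaled FPKM + 1). Genes are grouped by the nerve in which they were highest, and Igkv8-24 in KO 3 is the brightest cell at 189 FPKM.

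Kappa genes were shared between the high nerves to a larger extent than heavy chain genes. WT 5 and KO 5 shared 44 Igkv genes at 1 FPKM or more (77.2% and 81.5% of their genes). WT 5 and KO 3 shared 31 (54.4% and 79.5%), KO 3 and KO 5 shared 30 (76.9% and 55.6%), and 28 were present in all 3. Of the Ighv genes, 7 were shared by the nerves numbered 5 (38.9% and 35.0%), 3 by WT 5 and KO 3 (3 of 18 and 3 of 15), and 7 by KO 3 and KO 5 (46.7% and 35.0%), with 2 in all 3. The Ighv levels rested on fewer fragments, and the difference between the chains was not tested.

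Along the kappa locus, the 52 of 104 Igkv genes nearest to Igkc gave 66.4%, 59.4% and 57.8% of the Igkv level in the high nerves (WT 5, KO 3 and KO 5). They gave 26.1%, 30.7% and 37.2% in the low nerves (WT 2, WT 4 and KO 2). Igkv14-126 and Igkv2-137, the leaders of the low nerves, both lie in the distant part. Igkv14-126 made up 53.3% and 49.6% of the Igkv level in WT 2 and WT 4, and Igkv2-137 23.1% in KO 2. The low share near Igkc thus rests on this 1 gene largely in WT 2 and WT 4 and in part in KO 2. For heavy chains the corresponding share was 53.1%, 54.5% and 43.9% in the high nerves. It was 56.6%, 51.0% and 44.3% in the low nerves, where the Ighv genes rested on few fragments.

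The marker genes of antibody-producing cells did not all follow the members. The joining chain gene (listed as Igj), whose product links IgM and IgA into polymers, had 5.24, 5.96 and 92.2 FPKM in WT 2, WT 4 and WT 5 and 4.59, 171 and 145 in KO 2, KO 3 and KO 5. Mzb1, a chaperone of antibody assembly, had 0, 0.257 and 7.45 against 0, 2.01 and 4.10 FPKM. Both were higher in the 3 high nerves than in the low ones, as the constant genes Igkc and Ighm were. Of the 13 plasma cell markers, 5 had all 3 high nerves above all others, and so had 5 of the 12 B-cell markers described below. Sdc1, a surface proteoglycan that plasma cells share with epithelia and other cells, had 11.3, 12.6 and 15.5 FPKM in WT 2, WT 4 and WT 5 and 8.47, 7.24 and 9.65 in KO 2, KO 3 and KO 5. It was lowest in KO 3, a high nerve, and the genotypes did not overlap (log2 fold change -0.57 ± 0.19 SE, limma adjusted p = 0.923). Edem1, which acts in the degradation of misfolded secretory proteins, had 6.08, 6.99 and 6.52 against 5.21, 4.26 and 4.48 FPKM, again without overlap (log2 fold change -0.42 ± 0.17 SE, limma adjusted p = 0.972). As given above, 5.88% of all genes had lower values without overlap. Xbp1, a transcription factor that many tissues express, had 82.7 to 117 FPKM in all nerves. The summed level of this list was 166 to 272 FPKM in the 4 nerves other than KO 3 and KO 5, and 326 and 340 FPKM in these. Igj alone, at 171 and 145 FPKM in KO 3 and KO 5, made this difference. The sum therefore does not speak for the list as a whole.

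The B-cell markers separated WT 5 from both high Plekhg5-deficient nerves. All 12 were at least 2-fold higher in WT 5 than in any other nerve. Their summed level was 5.58, 5.34 and 154 FPKM in WT 2, WT 4 and WT 5 and 3.54, 5.41 and 8.72 FPKM in KO 2, KO 3 and KO 5. Cd79a, a signaling subunit of the B-cell receptor, had 37.1 FPKM in WT 5 and 1.75 FPKM or less elsewhere, and Ms4a1, which encodes the surface protein CD20, had 8.28 and 0.295 or less. The 6 T-cell markers were likewise at least 2-fold higher in WT 5 than in any other nerve, with a summed level of 76.6 against 1.40 to 3.46 FPKM. None of the B-cell, T-cell or plasma cell markers passed the test between genotypes, and their part in the levels of the members was not tested.

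**Figure D5:**
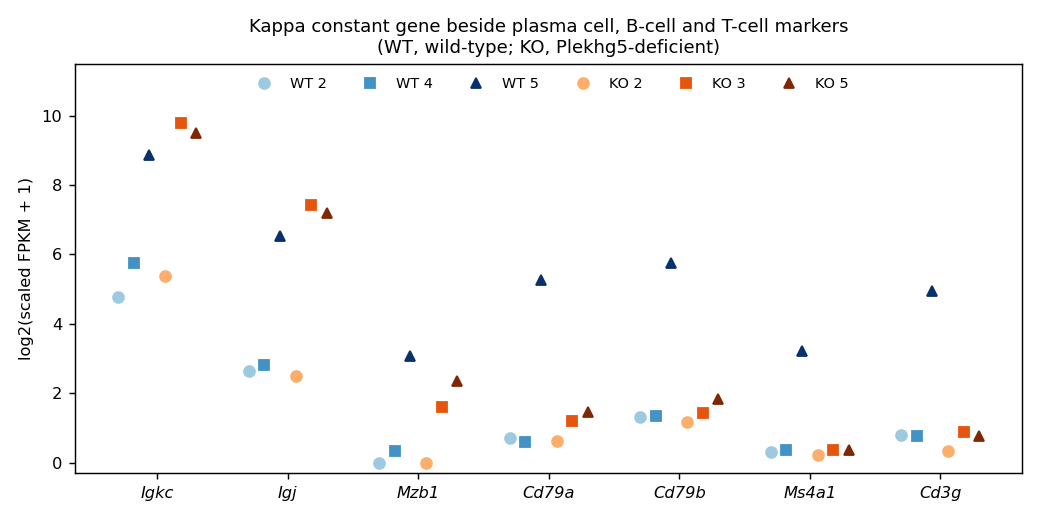
Igkc, the plasma cell markers Igj and Mzb1, the B-cell markers Cd79a, Cd79b and Ms4a1 and the T-cell marker Cd3g as log2(scaled FPKM + 1), with 1 symbol per sciatic nerve (WT, wild-type; KO, Plekhg5-deficient). WT 5, KO 3 and KO 5 are high for Igkc, Igj and Mzb1, and for the B-cell and T-cell markers WT 5 alone stands apart, at 37.1 FPKM of Cd79a.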

How the data were processed

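Poly(A) RNA of whole sciatic nerves was sequenced, with 3 libraries of wild-type and 3 of Plekhg5-/- mice. The FPKM, with 95% intervals, were made by the authors before deposit, after trimming with Trim Galore 0.4.0 (the first 9 bases were also removed from reads of a 75-cycle kit), mapping to GRCm38 with STAR and estimation with Cufflinks 2.2.1, each library by itself. The strand setting, the release of the annotation and the treatment of reads that map to several genes were not stated in the labels or methods, and FPKM of immunoglobulin genes depend on the last of these. Rearranged and mutated variable regions can also lose reads against a germline reference. The deposited tables used here hold no counts. Fragments were computed from the interval width as (2 × FPKM / (upper bound − FPKM)) squared.

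Membership used the FPKM as deposited. Repeated rows of 19 identifiers were added up. Libraries were scaled by median-of-ratios factors, and the 21285 genes whose mean reached 0.1 FPKM in wild-type or Plekhg5-deficient nerves were fitted as log2(FPKM + 1) with limma 3.58.1 (R 4.3.3). The model held genotype alone, with a trended variance, and p-values were adjusted after Benjamini and Hochberg over all of these genes. Log2 fold changes are on this scale, which understates changes of low genes. All 123 members were tested, and each had passed the limit of 1 FPKM in at least 1 nerve, so counts over them are descriptions. P-values measure the spread between these 6 libraries. The script was tested on simulated libraries. Shares and effective numbers are per nerve and have no test. Effective numbers and counts of variable genes used all variable genes at 1 FPKM or more after scaling, so a gene near that limit can count without being a member. Figures were drawn with matplotlib 3.10.9.

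The members and the lists were chosen with earlier results of these data known. Genes named by rule were Plekhg5, the constant genes, the 3 Ighv, 3 Igkv and 1 Iglv genes of highest FPKM per nerve, the 3 variable genes of largest change per direction without overlap, and the marker lists. Some genes that the rule names are left unreported. Ighv1-31, Ighv1-85, Ighv1-64, Ighv1-72, Igkv1-88, Ighv1-22, Igkv6-29, Igkv19-93 and Igkv4-55 were named after their values or sequences were seen. Coordinates of 28 of the 119 members found in GENCODE M21 were the same there, and gene positions are those of the deposited tables. Alternatives to the fit were array weights, a replicate block, a robust variance or one without trend, pseudocounts of 0.1 and 0.5, a filter at 1 FPKM, no filter, scaling by the upper quartile, unscaled FPKM, and restriction to genes of status OK. Each library was left out in turn. For shares and spread they were fragments in place of FPKM, minima of 0.5 and 2 FPKM for variable genes, and families in place of genes. Leaving out both libraries numbered 5, Igha without Ighm, deposited FPKM for the spread and thinning to equal fragments were added after the data had been seen.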

Additional observations from a re-analysis of the deposited data

How the results depend on the processing

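No member was called at an adjusted p under 0.05 from limma under any of the 18 alternatives, the leave-out fits included. Plekhg5 itself lost its call without a filter, with the replicate block, without both libraries numbered 5 and in every fit that left out 1 library. Those fits missed Plekhg5, so no conclusion about the members can be drawn from the absence of calls in them. With an unadjusted p under 0.05, the members counted 0 to 3 lower and 1 to 29 higher. Their higher share exceeded that of all genes most without Plekhg5-deficient replicate 2 (23.8% against 2.06%) and without both libraries numbered 5 (10.2% against 2.89%). The replicate block (8.13% against 1.58%) and the fit without wild-type replicate 5 (7.50% against 2.16%) came next. Over all genes, the 6 genes called higher became 2 without a filter, 14 with array weights and 0 with the replicate block, and between 0 and 8 when 1 library was left out. The 2 called lower became 1 with a pseudocount of 0.1, with a filter of 1 FPKM or with a robust variance, 0 without a filter, 8 with array weights, 0 with the replicate block, 0 without both libraries numbered 5, and 0 in every fit that left out 1 library. The pairing rests on the shared numbers 2 and 5 alone. Deviations from the group means correlated at r = 0.083 for number 2 and 0.62 for number 5 over 14964 genes, and the labels do not say what a number marks. Under this block, 3 members (2.44%) had a negative and 10 (8.13%) a positive change with an unadjusted p under 0.05, against 2.89% and 1.58% of all genes. The log2 fold change of Ighg2b turned to -0.19, that of Iglc2 to -0.069 and that of Ighm to -0.28, while Igha came to 0.33 and Igkc to 0.62 (0.43 and 0.53 with array weights). Ighm also turned below 0 with a pseudocount of 0.1 (-0.00048), deposited FPKM (-0.16), upper quartile scaling (-0.0051), array weights (-1.37), and without wild-type replicate 2 (-0.61), Plekhg5-deficient replicates 3 (-0.30) or 5 (-0.90), or both numbered 5 (-0.31). Iglc2 turned with array weights (-0.17) and without Plekhg5-deficient replicate 5 (-0.49), and Ighg1 without the latter (-0.77). When 1 library was left out, Ighm ranged up to 1.22, Iglc2 to 3.03 and Ighg1 to 1.996. The cause was not tested. The differences in Igha share, lambda share and Igkv spread moved by less than 1 SD between nerves, pooled over the genotypes, under every alternative. This SD was larger than each difference, at 15.7 against 15.0 percentage points for Igha share and 9.57 against -2.34 for lambda share. For the Igkv effective number it was 7.87 against 5.77, and for the number of Igkv genes 26.4 against 11. Such a check could hardly fail, so no stability can be read from it. The difference in Igha share ranged from 2.27 to 22.5 percentage points when 1 nerve was left out, that in lambda share from -7.18 to 3.77, and that in the number of Igkv genes from 1 to 28. Levels under 1 FPKM rest on few fragments.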

Other observations

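Several genes that bind or carry antibodies were present in all nerves and followed another order than the antibody genes. Fcgrt, the neonatal receptor that spares IgG from degradation, had 38.3, 34.6 and 66.6 FPKM in WT 2, WT 4 and WT 5 and 31.8, 26.3 and 44.2 in KO 2, KO 3 and KO 5. Fcer1g, the signaling chain shared by several Fc receptors, had 114, 137 and 280 against 103, 117 and 259 FPKM. Both were highest in the nerves numbered 5, and KO 3, high in immunoglobulin, was near or below the low nerves. Fcgr1, the high-affinity IgG receptor of macrophages, was at 2.05, 1.73 and 1.62 against 0.741, 0.853 and 1.46 FPKM, without overlap between genotypes, as 5.88% of all genes were in this direction (log2 fold change -0.49 ± 0.19 SE, limma adjusted p = 0.972). Of the 10 listed genes of this kind, 1 had all 3 high nerves above all others, namely Fcgr2b. It had 15.3, 21.5 and 31.9 against 23.0, 24.5 and 37.4 FPKM in the same order of nerves. Pigr, which carries IgA and IgM across epithelia, was at 0.183 FPKM or less in every nerve.

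Genes of variable gene recombination were close to the limit of detection. Rag1 and Rag2, which cut the gene segments, and Dntt, which adds bases at their joins, were at 0.132 FPKM or less in every nerve. Irf4, a transcription factor of plasma cells and other lymphocytes, was at 9.67 FPKM in KO 5 and at 0.808 to 2.71 FPKM elsewhere. Faim3, the IgM receptor, was at 38.2 FPKM in WT 5 and at 0.882 FPKM or less elsewhere, the order of the B-cell markers. None of the tested genes of these lists, or of the erythroid, skeletal muscle and myelin lists, passed the test between genotypes.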
